A study of Mus musculus with 9 samples.

Results

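The genes described here encode the proteins of the mitochondrial ribosome. They were chosen by name, as every gene of the deposited table whose mouse symbol is Mrpl or Mrps followed by a number and at most 1 letter, with a mean level of 10 or more across the 9 libraries. The rule found 78 of the 18820 genes in the table, 49 named Mrpl and 29 named Mrps. All 78 matching symbols of the GRCm38 annotation were in the table and all 78 passed the minimum, the lowest being Mrps28 with a mean of 210, so the minimum left out no member. No measured difference entered the rule, but Mrps23 was singled out with earlier results of these data known, and its values are a description of a gene picked for its difference.

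RNA from C57BL/6J mouse cortex was sequenced at embryonic day 18.5, in 3 genotypes of Cyfip2, a subunit of the WAVE complex that regulates actin. The libraries were 3 of knockout (KO), 3 of heterozygous (Het) and 3 of wild-type (WT) cortex. The mutant allele is not described in the labels. Nor do they state whether each library is a different embryo, and p-values therefore cover the spread among the libraries at hand. All levels are normalized counts, read here, from the name and values of the deposited table, as gene counts that the authors divided by a size factor for each library.

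The mitochondrial ribosome translates the few mRNAs of the mitochondrial genome, all of which encode core subunits of the respiratory chain and ATP synthase. Its ribosomal RNAs come from that genome, while all of its proteins are encoded in the nucleus, made in the cytosol and imported. The small subunit reads the mRNA, and the large subunit joins amino acids and releases the nascent chain, which is inserted into the inner membrane. Some of its proteins descend from bacterial ribosomal proteins and others have no bacterial counterpart. Neurons draw much of their ATP from oxidative phosphorylation, and inherited defects of mitochondrial translation often affect the brain.

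By structure, 51 members belonged to the large subunit, including Mrps18a and Mrps30 despite their names, and 26 to the small subunit. Mrps36 was counted in neither, since its product is now known as a subunit of the 2-oxoglutarate dehydrogenase complex. Of the 78, 46 have a bacterial homolog. Members lay on 17 chromosomes, with 11 on chromosome 11, which also carries Cyfip2. Together they held 0.182% to 0.206% of the total normalized count of a library.

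Some of these genes also share short motifs in their promoters. Transcription factors known to act on nuclear genes of mitochondria, among them NRF1, the ETS factor GABP, YY1 and CREB, bind short motifs, and their letters were searched on both strands in RefSeq windows of 300 bases, 250 before and 50 after each start, on GRCm38.p6. Windows were at hand for 69 of the 78 members, 75 windows in all. The ETS motif CCGGAAG was in 34.7% of the members' windows, against 8.86% of all 32851 windows. The NRF1 motif, GCGCA and GCGC separated by any 1 base, was in 17.3% of the members' windows and in 4.60% of all windows. AAGATGGC, for YY1, was in 16.0% of the members' windows, against 2.75% of all. TGACGTCA, for CREB, was in 2.67% and 1.79%. By gene, a match was found in 26 of 69 for ETS, 13 for NRF1, 12 for YY1 and 2 for CREB. The windows of all genes were not matched to the members in base content or expression. A match is a description of letters, not a site shown to be bound.

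The 250 bases before the start are printed for 4 members, 5′ to 3′ on the strand of the gene, with motif matches in capitals. Mrps23 (chr11:88204138-88204387, plus strand) is the member that stood apart in mutant libraries. Mrps22 (chr9:98601680-98601929, minus strand), another small-subunit gene, has the ETS motif close to its start. Mrpl45 (chr11:97315466-97315715, plus strand) shows a pair of NRF1 motifs on the chromosome of Mrps23. Mrpl52 (chr14:54426659-54426908, plus strand), the member with the highest level per length, has the ETS motif on the opposite strand. None of the motifs was in the printed bases of Mrps23, although CCGGAAG was within the 50 bases after its start.
Mrps23: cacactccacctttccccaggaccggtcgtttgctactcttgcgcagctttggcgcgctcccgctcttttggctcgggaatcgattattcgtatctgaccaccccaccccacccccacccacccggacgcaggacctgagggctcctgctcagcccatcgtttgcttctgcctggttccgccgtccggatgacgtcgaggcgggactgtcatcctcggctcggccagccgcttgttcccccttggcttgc
Mrps22: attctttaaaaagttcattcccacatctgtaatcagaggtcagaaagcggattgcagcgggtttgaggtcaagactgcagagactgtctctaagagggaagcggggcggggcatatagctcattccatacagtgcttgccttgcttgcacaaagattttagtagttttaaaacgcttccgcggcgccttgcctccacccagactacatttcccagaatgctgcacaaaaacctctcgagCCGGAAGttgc
Mrpl45: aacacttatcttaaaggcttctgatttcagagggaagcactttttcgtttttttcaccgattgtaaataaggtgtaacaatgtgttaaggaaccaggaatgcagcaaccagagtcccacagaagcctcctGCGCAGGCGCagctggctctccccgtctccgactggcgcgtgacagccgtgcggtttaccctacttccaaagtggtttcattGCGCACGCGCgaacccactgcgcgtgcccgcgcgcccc
Mrpl52: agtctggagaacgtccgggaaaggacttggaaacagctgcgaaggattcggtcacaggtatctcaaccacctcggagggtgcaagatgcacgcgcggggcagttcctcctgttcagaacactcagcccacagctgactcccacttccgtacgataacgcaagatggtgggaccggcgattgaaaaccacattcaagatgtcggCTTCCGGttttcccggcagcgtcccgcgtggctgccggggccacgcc

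Depth was estimated from the smallest steps between low values, at about 29.5 M reads in the shallowest library (KO replicate 1) and 54.4 M in the deepest (WT replicate 2). Cyfip2 followed the order of the labels, with 7522 to 8255 in KO libraries, 8969 to 9882 in Het libraries and 10169 to 11174 in WT libraries, so that the genotypes did not overlap. The log2 fold change of KO over WT was only -0.42, and so high a level over the whole gene does not by itself check a knockout. Cortical excitatory neuron markers were present throughout, with summed levels of 73551 to 104895 in KO, 88591 to 98624 in Het and 84741 to 89977 in WT libraries. Several libraries stood apart in tissue or sex. Cdhr1 marks mitral cells of the olfactory bulb. It was at 3237 in KO replicate 1, 2138 in KO replicate 2, 3436 in Het replicate 1 and 2230 in WT replicate 3. The other libraries had 21.8 to 53.1. Libraries with Cdhr1 above 500 are taken below to hold bulb RNA and called bulb libraries, on this gene alone. Summed bulb markers did not fully separate them. The sums were 28566.4, 26194.5 and 15121.3 in KO, 25593.5, 23398.2 and 17134.3 in Het and 21285.3, 21943.6 and 22384.3 in WT libraries. Het replicate 2, not a bulb library by Cdhr1, was thus above WT replicate 3, which was one. Summed Y-linked levels of 339 to 401 set KO replicates 1 and 2 and Het replicate 1, as females, apart from the other libraries at 6204 to 8382. Summed meningeal markers were at 1973 in Het replicate 3 and 21652 to 48639 elsewhere, and summed choroid plexus markers were at 11794 in Het replicate 2, 3502 in WT replicate 2 and 70.8 to 840 elsewhere. Summed erythroid markers were lowest in KO replicate 2, at 27036, and highest in KO replicate 1, at 98775. For KO over WT, 7 of 9 striatal markers were above 0, with a median log2 fold change of 0.40. Meningeal markers were above 0 for 12 of 12, with a median of 0.46. Below 0 were 7 of 9 cortical neuron markers (median -0.09) and 5 of 7 choroid plexus markers tested (median -0.36). Bulb markers were above 0 for 5 of 9 (median 0.002) and erythroid markers for 3 of 7 (median -0.07). For Het over WT, 12 of 12 meningeal markers (median -1.235) and 7 of 7 choroid plexus markers tested (median -0.36) were below 0. Above 0 were 7 of 7 erythroid (median 0.53), 8 of 9 cortical neuron (0.08), 7 of 9 striatal (0.08) and 5 of 9 bulb markers (0.03). For KO over Het, 12 of 12 meningeal markers were above 0 (median 1.775), and 5 of 7 erythroid markers were below (median -0.57).

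Mrps23 stood lower in mutant than in WT libraries. It encodes a small-subunit protein with no bacterial homolog, and lies at chr11:88204388-88211507 on the plus strand of GRCm38 (ENSMUSG00000023723). Its normalized counts were 1203, 964 and 943 in KO libraries, 1060, 1037 and 1068 in Het libraries and 1454, 1418 and 1335 in WT libraries. Every KO and every Het library lay below every WT library, and the KO libraries lay on both sides of the Het libraries. Means were 1037 ± 144 in KO, 1055 ± 15.6 in Het and 1403 ± 61.1 in WT libraries (SD, n = 3 each).

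**Figure D1:**
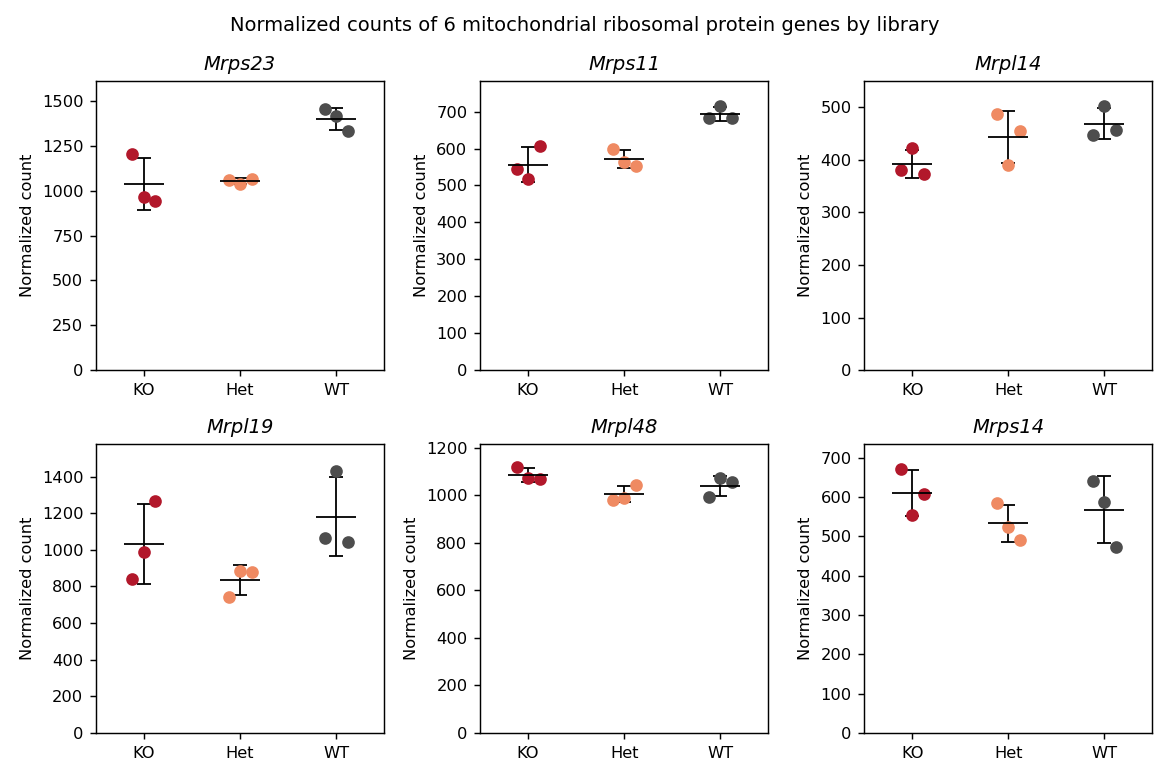
Normalized counts (y axis, from 0) of 6 members in KO, Het and WT libraries; points are libraries, bars are means ± SD over 3 libraries. Mrps23 and Mrps11 were below all WT libraries in each KO and Het library, while Mrpl48 and Mrps14 overlapped WT in both mutants.

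Fold changes come from limma, fitted to log2(value + 1) for the 15069 genes that passed the minimum of 10, with p-values adjusted over all of them (Benjamini-Hochberg, threshold 0.05). For Mrps23, the log2 fold change of KO over WT was -0.44 ± 0.10 (SE), with a 95% interval of -0.66 to -0.23. The limma p was 0.00133, the 4th smallest of 15069, and the adjusted p was 0.9998, so Mrps23 was not called. Het over WT gave -0.41 ± 0.10 (interval -0.63 to -0.19), with a limma p of 0.00219, the 3rd smallest, and an adjusted p of 0.9998. These comparisons share the WT libraries and are not independent of each other. KO over Het was -0.03 ± 0.10 (interval -0.25 to 0.18, limma p 0.731). Exact two-sided permutation tests gave 0.1 for KO against WT, 0.1 for Het against WT and 1 for KO against Het, and 0.1 is the smallest value that 3 libraries against 3 allow. In bulk tissue, fewer cells of a type and less RNA per cell cannot be told apart.

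Sex and bulb tissue were unevenly spread over the genotypes, with 2 female libraries in KO, 1 in Het and 0 in WT. With sex as a covariate its log2 fold change was -0.51 for KO over WT and -0.44 for Het over WT. Without the 4 libraries taken to hold bulb RNA it was -0.61 and -0.45, where the KO value is that of KO replicate 3 alone, the library in which Mrps23 was lowest. Every KO value without the bulb libraries rests on this 1 library, and the libraries left are all male.

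Set among the other members, Mrps23 was at the low end of every mutant library and inside the range in every WT library. Each library was expressed as the log2 difference of a gene from its WT mean, and the 78 members were ranked from the lowest. On this scale the WT values of every gene centre on 0, so a place inside the range in WT is largely set by the scale. The ranks in mutant libraries restate, library by library, the difference for which Mrps23 was picked, and are not separate support. In KO libraries Mrps23 was at -0.22, -0.54 and -0.57, ranks 6, 1 and 1. In Het libraries it was at -0.40, -0.43 and -0.39, rank 2 in each. WT libraries had it at 0.05, 0.02 and -0.07, ranks 59, 25 and 27. The member below it was Mrpl19 in Het replicates 1 and 3 and Mrpl47 in Het replicate 2, whereas KO replicate 1 had 5 members below it, Mrpl19 being the lowest at -0.48. Measured from the median of the members in the same library, Mrps23 was at -0.16, -0.39 and -0.55 in KO, -0.39, -0.31 and -0.37 in Het and 0.06, -0.02 and -0.03 in WT libraries. KO replicate 1 was thus the mutant library nearest to WT. KO replicates 1 and 2 were female and taken to hold bulb RNA, and KO replicate 3 was neither. The part of sex and bulb tissue in these values was not tested.

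**Figure D2:**
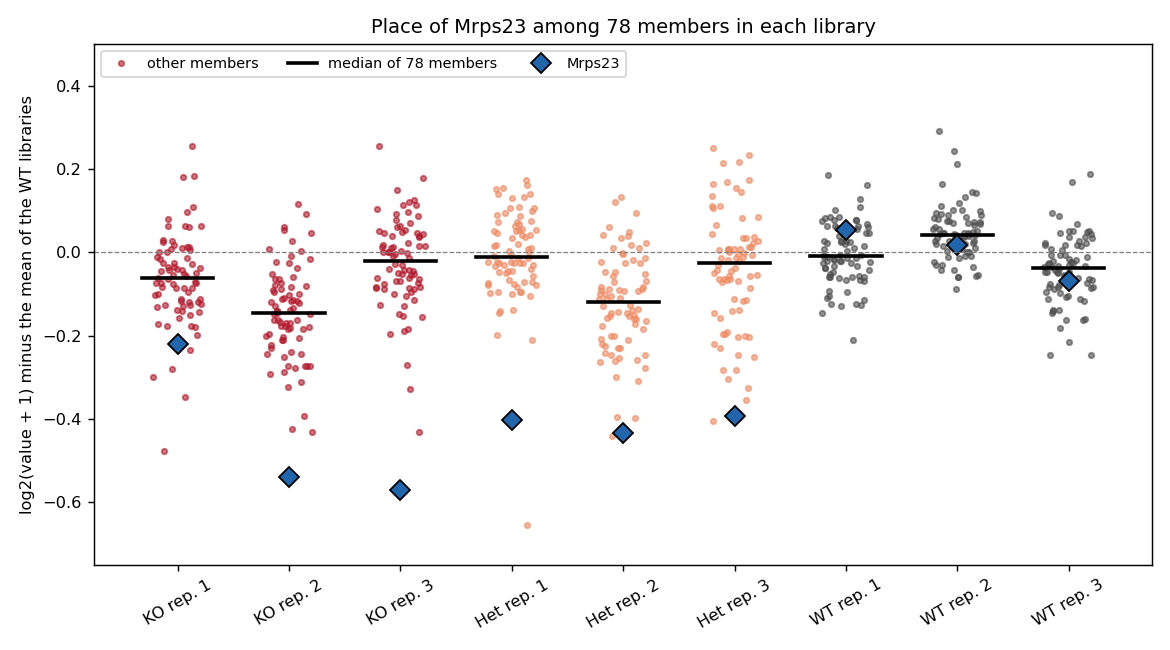
Log2 difference from the WT mean (y axis) of each of the 78 members in each of the 9 libraries (x axis); the blue diamond is Mrps23, small points are the other members, spread sideways at random, and bars are medians of the 78. Mrps23 is at or near the bottom in all 6 mutant libraries, at -0.22 to -0.57, and between -0.07 and 0.05 in WT libraries, where every gene centres on 0 by this scale.

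The 3 genes on either side of Mrps23 had fold changes between -0.20 and 0.15. Mrps23 lies 41.9 Mb from the nearer edge of Cyfip2 on the same chromosome. The log2 fold changes of KO over WT were 0.02 for Srsf1, -0.06 for Vezf1 and -0.10 for Cuedc1 on the one side, and -0.01 for Msi2, -0.08 for Akap1 and 0.10 for Scpep1 on the other. Those of Het over WT were 0.13, 0.10 and -0.05, then -0.0007, 0.15 and -0.20, in the same order. The 11 members on chromosome 11, Mrps23 among them, had a median log2 fold change of -0.11 for KO over WT and -0.07 for Het over WT. The medians over all members were -0.08 and -0.05.

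In KO against WT cortex most members had fitted values below 0, and none was called. The fitted value was below 0 for 69 of the 78 (88.5%), against 51.6% of all genes tested, and the median log2 fold change was -0.08, against -0.004 over all genes. At an adjusted p under 0.05 limma called 0 members, as it called 0 genes in all (0% of 15069), and the smallest adjusted p of a member was 0.9998. At an unadjusted p under 0.05 there were 3 members lower in KO, Mrps23, Mrps11 and Mrpl14, and 0 higher, where 0.637% of all genes were lower and 0.544% higher. All 3 KO libraries lay below all 3 WT libraries for 11 members and above them for 0, against 3.30% and 3.17% of all genes. The 11 were Mrps10, Mrps11, Mrps16, Mrps22, Mrps23 and Mrps33 of the small subunit and Mrpl2, Mrpl9, Mrpl14, Mrpl36 and Mrpl43 of the large subunit. Median log2 fold changes were -0.09 for the small subunit (24 of 26 below 0) and -0.08 for the large subunit (44 of 51 below 0). Members with a bacterial homolog had a median of -0.10 and those without one -0.05.

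Mrps11, the small-subunit protein homologous to bacterial S11, came next to Mrps23. It had 545, 516 and 608 in KO libraries, 599, 563 and 553 in Het libraries and 683, 714 and 683 in WT libraries. All 6 mutant libraries were below WT and the mutants overlapped each other. Its log2 fold change was -0.32 ± 0.09 for KO over WT (limma p 0.00516) and -0.28 ± 0.09 for Het over WT (limma p 0.0108), with an adjusted p of 0.9998 in each. The value of KO over WT was -0.20 without the bulb libraries, where KO is replicate 3 alone. Mrps11 and Mrpl46 lie head to head on chromosome 7 and share exon bases on opposite strands. Mrpl46, a large-subunit protein without a bacterial homolog, had 434, 363 and 418 in KO libraries, 441, 347 and 348 in Het libraries and 426, 461 and 406 in WT libraries. Its genotypes overlapped, with log2 fold changes of -0.09 for KO over WT and -0.19 for Het over WT.

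Other members with small p in KO against WT were large-subunit genes. Mrpl14, homologous to bacterial L14, had 380, 422 and 372 in KO libraries, 486, 389 and 454 in Het libraries and 446, 502 and 457 in WT libraries. KO libraries lay below WT and Het libraries overlapped both, and the log2 fold change of KO over WT was -0.26 ± 0.11 (limma p 0.0488). Mrpl3, homologous to bacterial L3, had 1599, 1492 and 1626 in KO and 1742, 2087 and 1608 in WT libraries. Its groups overlapped, at a log2 fold change of -0.20 ± 0.09 (limma p 0.0621).

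The few members with positive values in KO stayed within the spread of the libraries. Mrpl48, a large-subunit protein of mitochondria alone, had 1119, 1071 and 1066 in KO libraries, 979, 989 and 1042 in Het libraries and 990, 1071 and 1054 in WT libraries. Its KO libraries were above every Het library but overlapped WT, with a log2 fold change over WT of 0.06 ± 0.06. Mrps14, homologous to bacterial S14, had 672, 554 and 609 in KO, 585, 525 and 491 in Het and 641, 588 and 474 in WT libraries, with overlap throughout. Its log2 fold change of 0.11 ± 0.13 for KO over WT was -0.01 without the bulb libraries, where KO is replicate 3 alone, and also -0.01 without WT replicate 3. Mrpl38 and Mrpl23 were at 0.08 ± 0.10 and 0.08 ± 0.14, turning to -0.01 without KO replicate 3 for Mrpl38 and to -0.05 without the bulb libraries for Mrpl23.

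**Figure D3:**
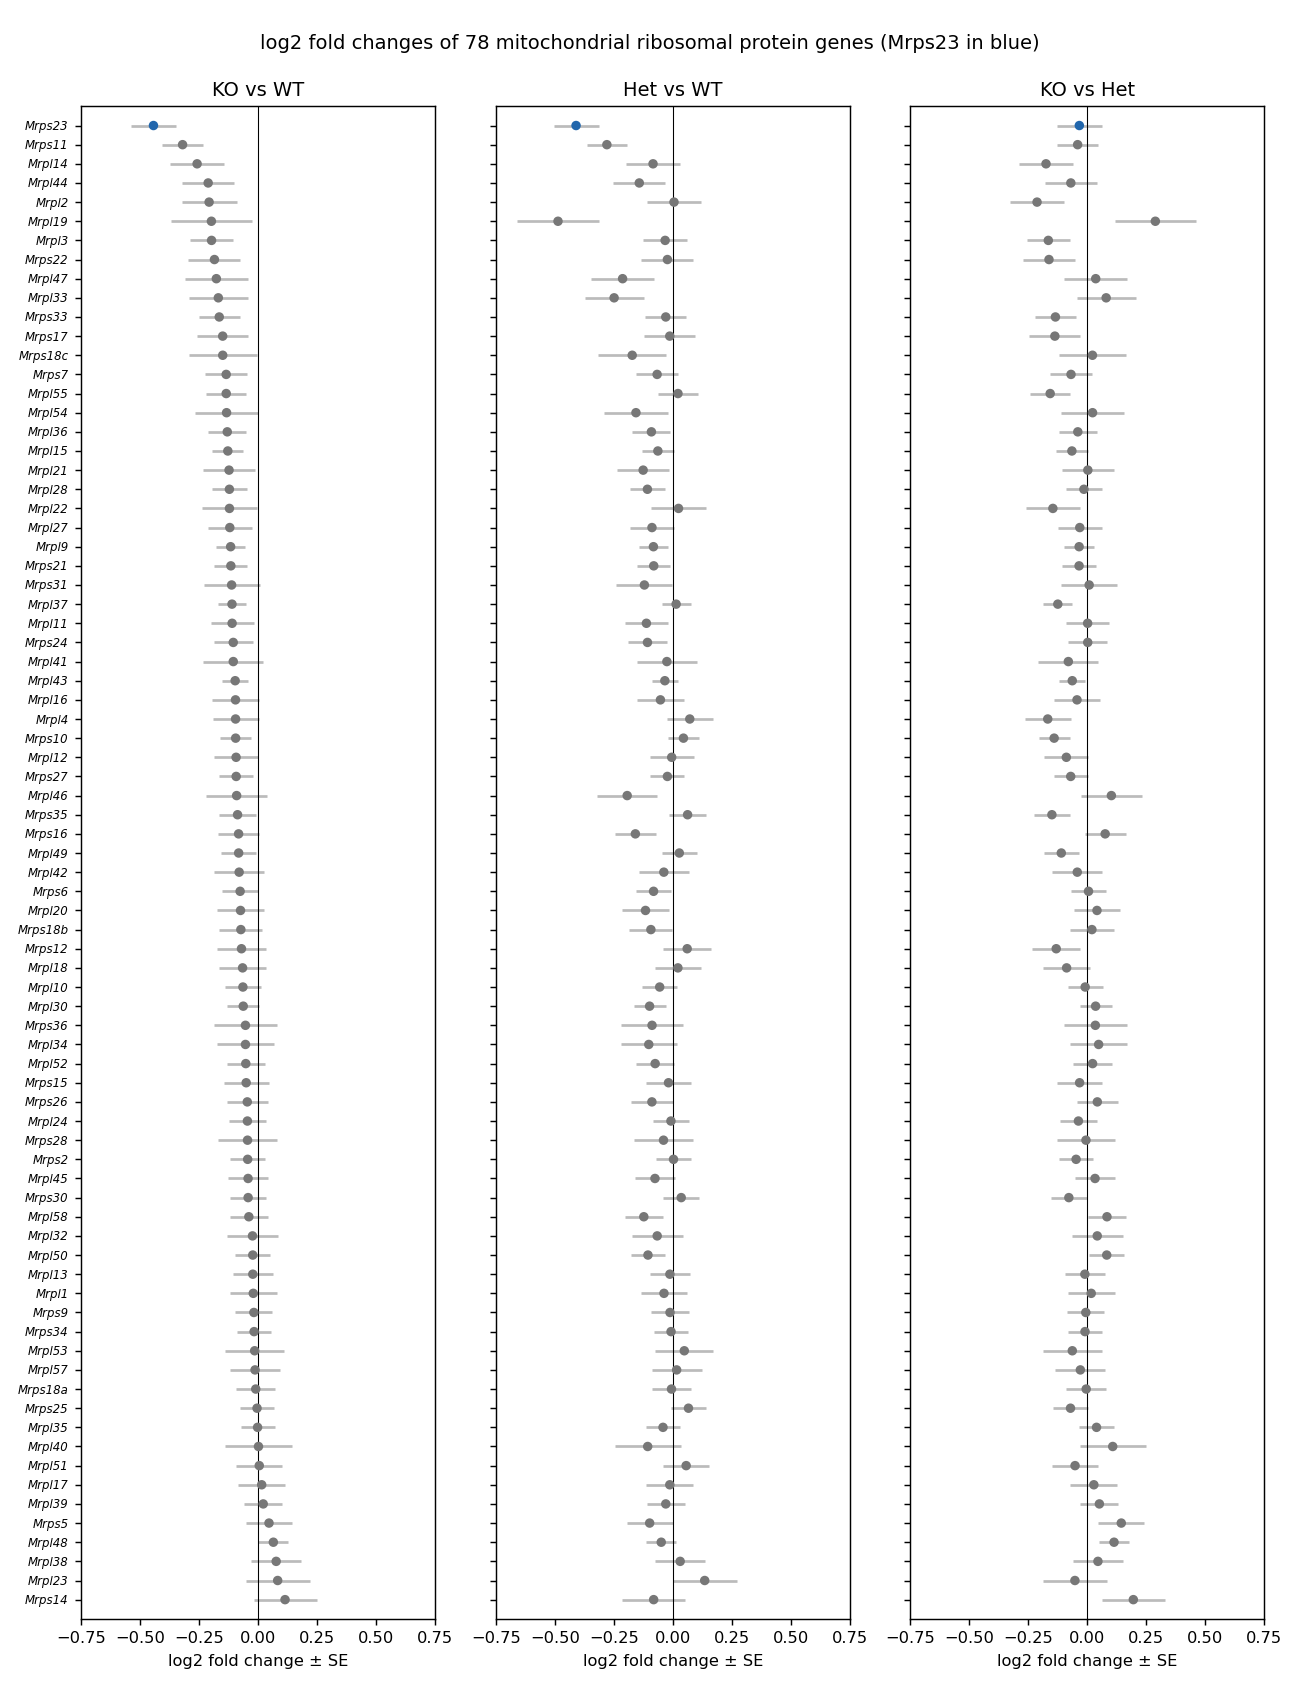
Log2 fold changes ± SE (x axes) of the 78 members in 3 comparisons, in the order of KO against WT, with Mrps23 in blue. In KO against WT, 69 points are left of 0, in Het against WT 60, and in KO against Het 46.

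In Het against WT cortex, where the WT libraries are the same ones, most members also had fitted values below 0. Of the 78 members, 60 were below 0 (76.9%, against 53.8% of all genes), with a median log2 fold change of -0.05, against -0.01 over all genes. Again limma called 0 members and 0% of all genes at an adjusted p under 0.05, the smallest adjusted p of a member being 0.9998. At an unadjusted p under 0.05, Mrps23, Mrps11 and Mrpl19 were lower in Het and 0 members were higher, where 0.644% of all genes were lower and 0.962% higher. Het libraries lay below all WT libraries for 8 members and above them for 0, against 3.31% and 3.36% of all genes. These were Mrps6, Mrps11, Mrps16, Mrps18b, Mrps23 and Mrps24 of the small subunit and Mrpl19 and Mrpl36 of the large subunit.

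Mrpl19, homologous to bacterial L19, had 740, 886 and 880 in Het libraries and 1066, 1428 and 1043 in WT libraries, while KO libraries ranged widely at 838, 988 and 1269. Het libraries did not overlap WT, with a log2 fold change of -0.49 ± 0.17 (limma p 0.0210, adjusted p 0.9998), and KO libraries overlapped both. Mrpl33, homologous to bacterial L33, had 456, 383 and 438 in Het and 534, 566 and 426 in WT libraries, which overlapped, at -0.25 ± 0.13 (limma p 0.0801). The 4 members with the smallest p among positive values of Het over WT were Mrpl23 at 0.14 ± 0.14, Mrpl4 at 0.07 ± 0.10, Mrps25 at 0.07 ± 0.07 and Mrps35 at 0.06 ± 0.08.

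KO against Het split the members more evenly in the fit over all 9 libraries, but this depended on the setting. There were 46 of 78 members below 0 (59.0%, against 49.6% of all genes), with a median log2 fold change of -0.02, against 0.002 over all genes. Without the bulb libraries, which leaves KO replicate 3 as the only KO library, 27 of 78 were below 0 and the median was 0.055. The count below 0 was 59 of 78 without Het replicate 2. Under quantile normalization it was 61 of 78, with 4 members lower at an unadjusted p under 0.05. In the fit over all libraries limma called 0 members and 0% of all genes, and at an unadjusted p under 0.05 there were 0 members, where 1.42% of all genes were higher and 2.17% lower. Groups did not overlap for 5 members lower in KO (Mrps10, Mrps35, Mrpl3, Mrpl49 and Mrpl55) and for 1 higher (Mrpl48), against 4.68% and 3.15% of all genes. Mrps10, homologous to bacterial S10, had the smallest limma p of the members, 0.0601, with 1012, 1058 and 1059 in KO and 1183, 1189 and 1080 in Het libraries. Its log2 fold change was -0.14 ± 0.07. Mrpl19 had the highest fitted value, 0.29 ± 0.17, in overlapping groups. The next largest positive values were 0.20 ± 0.13 for Mrps14 and 0.14 ± 0.10 for Mrps5, and Mrpl48 was at 0.11 ± 0.06. Next to Mrps10 by p among negative values, Mrpl55 was at -0.16 ± 0.08, Mrps35 at -0.15 ± 0.08 and Mrpl37 at -0.13 ± 0.06. They were not the lowest fitted values, which reached -0.21.

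The small common shift of the members was uneven among the libraries of a genotype. As the log2 difference from the WT mean, the median over the 78 members was -0.06, -0.15 and -0.02 in KO libraries, -0.01, -0.12 and -0.03 in Het libraries and -0.01, 0.04 and -0.04 in WT libraries. KO replicate 2 and Het replicate 2 were the lowest, and WT replicate 3 was below KO replicate 3. In KO libraries 58, 70 and 43 members were below 0, in Het libraries 42, 66 and 47, and in WT libraries 42, 16 and 55. Without KO replicate 2, the median log2 fold change of KO over WT was -0.04 and 58 of 78 members were below 0. It was -0.04 too without the bulb libraries, with 48 of 78 below 0, where KO is replicate 3 alone. Without Het replicate 2, the median of Het over WT was -0.03, with 45 of 78 below 0. For Het over WT it was -0.09 without the bulb libraries and -0.03 under quantile normalization.

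Other large gene groups were low in the same mutant libraries. The nuclear genes of oxidative phosphorylation (78 tested) had library medians of -0.03, -0.11 and -0.06 in KO, -0.001, -0.15 and -0.0009 in Het and 0.01, 0.01 and -0.02 in WT libraries. Cytosolic ribosomal protein genes (78 tested) were at -0.03, -0.09 and -0.05 in KO, 0.06, -0.12 and 0.01 in Het and 0.06, 0.02 and -0.08 in WT libraries. All 3 groups were lowest in the same KO and Het library, replicate 2 of each. For KO over WT, 70 of 78 genes of oxidative phosphorylation and 72 of 78 cytosolic ribosomal protein genes were below 0, with medians of -0.06 and -0.07, beside the -0.08 of the members. All KO libraries lay below all WT libraries for 14 and 9 of these genes, beside 11 members and 3.30% of all genes, and above them for 0. Het libraries lay below all WT libraries for 7 and 0, beside 8 members and 3.31% of all genes. By p, the leading genes of oxidative phosphorylation were Ndufa10, a subunit of complex I, at -0.29 ± 0.08 for KO over Het (limma p 0.00531), and Cox7c, a subunit of cytochrome c oxidase, at -0.26 ± 0.10 for Het over WT (limma p 0.0265). Those of the cytosolic ribosome were Rps16 at -0.14 ± 0.05 for KO over WT (limma p 0.0290) and Rpl36a at -0.16 ± 0.07 for KO over Het (limma p 0.0479), and none of the 4 was called. Het replicate 2 also held the highest choroid plexus sum, and WT replicate 2, the library highest for the members, the next highest. KO replicate 2 was a female library taken to hold bulb RNA, and had the lowest erythroid sum and the highest striatal sum, 9007. The striatal sums were 6618 to 9007 in KO, 6257 to 8355 in Het and 5756 to 7765 in WT libraries; their part in the result was not tested.

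**Figure D4:**
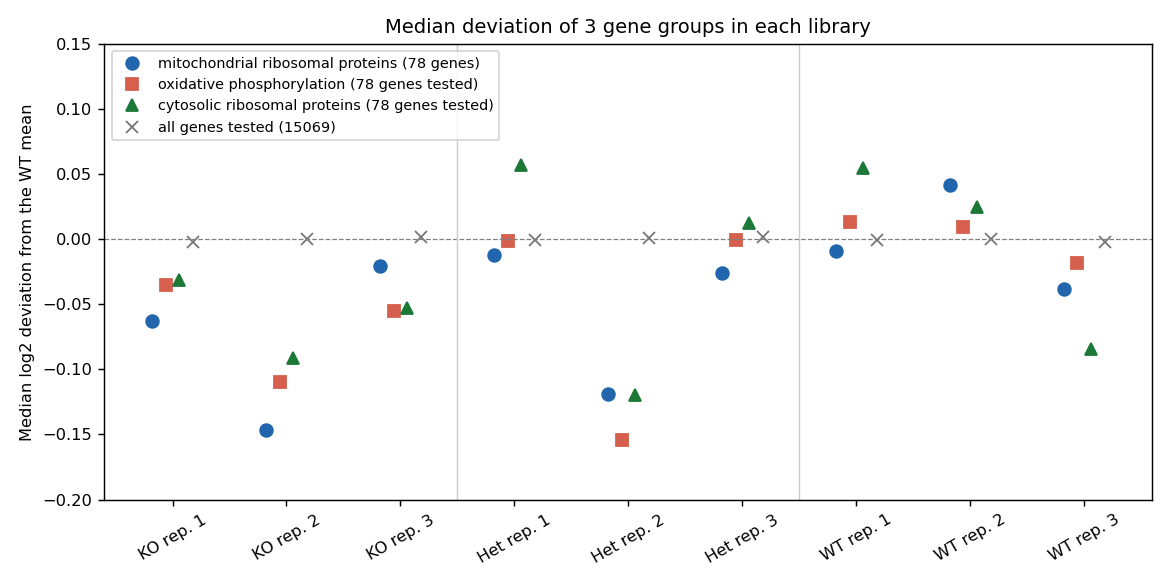
Median log2 difference from the WT mean (y axis) in each of the 9 libraries (x axis) for mitochondrial ribosomal protein, oxidative phosphorylation and cytosolic ribosomal protein genes and for all genes tested. Replicate 2 of KO and of Het is lowest for all 3 groups, at -0.09 to -0.15, while the median of all genes is between -0.002 and 0.002 in each library.

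Levels between members were compared per kb of the longest basic protein-coding transcript in the annotation. A long annotated transcript lowers this value, and transcripts ran from 463 bases for Mrpl52 to 7300 for Mrpl17 among those named here. In WT libraries the median member had 652 normalized counts per kb, with 656 for the large and 617 for the small subunit. Mrpl52 (2160 ± 99.9), Mrpl42 (2050 ± 144) and Mrps21 (2046 ± 117) were highest per kb, and Mrps25 (150 ± 3.94), Mrpl1 (135 ± 4.86) and Mrpl17 (129 ± 13.9) lowest (SD, n = 3 WT libraries). Mrpl42, Mrpl52 and Mrps25 have no bacterial homolog, whereas Mrps21, Mrpl1 and Mrpl17 do. The order was a gradual one: of 77 neighbouring pairs, 73 had WT libraries that overlapped. Mrps23 had 738 ± 103 per kb in KO libraries, 751 ± 11.1 in Het libraries and 999 ± 43.5 in WT libraries, where it was 17th of 78.

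**Figure D5:**
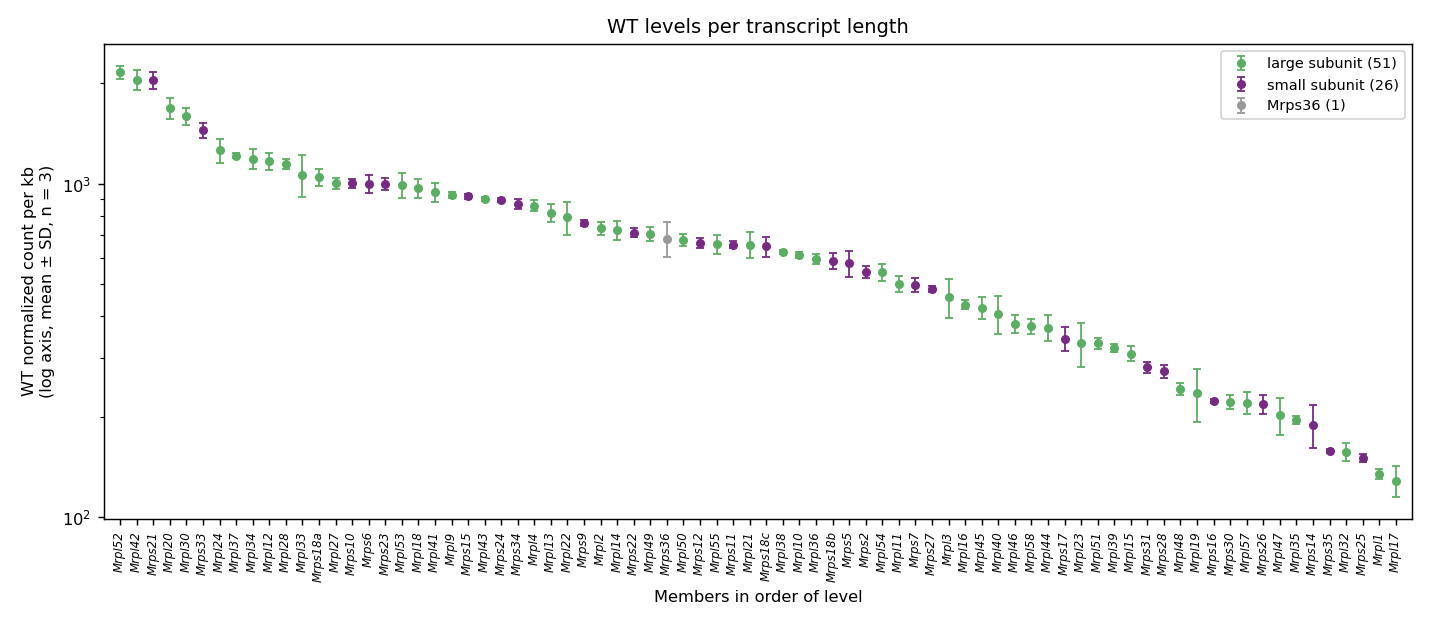
Normalized counts per kb of transcript in WT libraries (y axis, log scale; mean ± SD over 3 libraries) of the 78 members in order (x axis), coloured by subunit. Levels run from 2160 for Mrpl52 to 129 for Mrpl17, with both subunits spread over the whole order.

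Spread over the 9 libraries set few members apart. The SD of the log2 value over all 9 had a median of 0.104. It was largest for Mrpl19 (0.298), Mrps23 (0.237) and Mrps18c (0.177), a small-subunit protein of the S18 family. It was smallest for Mrpl35 (0.0512), Mrps34 (0.0525) and Mrpl43 (0.0525). This SD includes differences between genotypes. The place of Mrps23 thus in part restates the difference for which it was picked, and is not separate support. Mrpl35 had 728 ± 44.0 in KO, 707 ± 6.99 in Het and 728 ± 18.4 in WT libraries, so that no genotype departed from the others.

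Shared sequence bears on some values. Exon bases overlap a gene on the same strand for 8 members, and a gene on the opposite strand for 28. The library kit keeps strand, and no source used here says whether the counting used it, so values of these members could hold reads of the partner. Mrps23 shares no exon bases with another gene. The 45 members that share none had a median log2 fold change of -0.07 for KO over WT, and the 33 that share some -0.09. Named pseudogenes exist for Mrpl23, Mrpl48 and Mrps36, and how reads were split between copies is not known for them.

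Mitochondrial ribosome proteins under other names also had fold changes close to 0. For KO over WT the log2 fold changes were -0.05 ± 0.07 for Dap3, a GTP-binding protein of the small subunit, -0.04 ± 0.06 for Ptcd3, an RNA-binding protein of the small subunit, and -0.07 ± 0.08 for Gadd45gip1 of the large subunit. The small-subunit proteins Chchd1 and Aurkaip1 were at -0.03 ± 0.14 and 0.01 ± 0.08. The value of Dap3 was 0.01 without KO replicate 2, 0.01 with sex as a covariate and 0.08 without the bulb libraries. For Het over WT, Chchd1 was at -0.05 ± 0.14 and Aurkaip1 at 0.02 ± 0.08. None of the 5 was called in any comparison.

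Genes that build and serve the mitochondrial ribosome gave 0 calls at an adjusted p under 0.05 in each list and comparison. Of 30 assembly factors, 19 were below 0 for KO over WT, with a median of -0.03, and 1 was lower at an unadjusted p under 0.05. This was Fastkd2, an RNA-binding protein needed for the large subunit, with 725, 619 and 632 in KO libraries, 864, 831 and 740 in Het libraries and 879, 812 and 767 in WT libraries. KO libraries lay below all others, with log2 fold changes of -0.32 ± 0.10 over WT (limma p 0.0110) and -0.30 ± 0.10 over Het (limma p 0.0140). Spg7, a subunit of the protease that matures Mrpl32, was at 0.16 ± 0.07 for Het over WT (limma p 0.0526).

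Of 19 translation factors and related genes, 11 were below 0 for KO over WT, median -0.04. Pdf, the peptide deformylase of mitochondria, had 475, 428 and 455 in KO and 520, 500 and 558 in Het libraries, without overlap, at -0.22 ± 0.09 (limma p 0.0359). Mief1, whose transcript also encodes a microprotein found on assembling large subunits, was at -0.11 ± 0.06 for KO over WT. Of 19 mitochondrial tRNA synthetases, 9 were below 0 for KO over WT, median 0.01, and the smallest p values were those of Iars2 (0.12 ± 0.06) and Vars2 (0.17 ± 0.09) in Het over WT.

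Transcription of the mitochondrial genome was represented by 16 genes, of which 11 were below 0 for KO over WT, median -0.04. Tfam, which packages mitochondrial DNA and starts its transcription, had 1577, 1241 and 1518 in KO libraries, 1163, 1201 and 972 in Het libraries and 1724, 1719 and 1323 in WT libraries. Het libraries lay below all KO and all WT libraries. Its log2 fold change was -0.51 ± 0.14 for Het over WT (limma p 0.00537, adjusted p 0.9998) and 0.38 ± 0.14 for KO over Het (limma p 0.0244). Nrf1, the factor whose motif is given above, was at -0.16 ± 0.08 for KO over Het. The 13 mitochondrial mRNAs, which the ribosome translates, had 6 below 0 for KO over WT and a median of 0.008. The smallest p values among them were in KO over Het, for mt-Atp8 at 0.32 ± 0.17 and mt-Co3 at -0.20 ± 0.13.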

How the data were processed

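Per the labels' protocols, a TruSeq stranded kit for mRNA was used. The deposited values are a signal. Their table is named as DESeq counts and its values are not whole, so they were read as gene counts that the authors had scaled by DESeq size factors. DESeq2 1.19.11, Salmon 0.11.2, R 3.6.0 and GRCm38 are named in the submitters' processing notes without a role or an order. Low values came in steps of about 1 read, but only 60.8% to 78.2% of them per library were whole multiples within 0.1, so whole reads could not be recovered and no count test was used. Symbols came from the Ensembl gene IDs for 18783 of 18820 genes.

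Values were taken as log2(value + 1), which understates changes of low genes, for genes with a mean of at least 10. limma 3.58.1 in R 4.3.3 (lmFit, eBayes with trend) fitted 1 mean per genotype to all 9 libraries, two-sided. The procedure was tested on simulated data. Errors are SDs beside means and limma SEs beside fold changes, and intervals have a level of 95%.

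The members, lists and named genes were chosen with earlier results of these data known. Named are Mrps23, the 4 members with the smallest p in each direction of each comparison, the 3 at each end of WT level per kb and of spread, the 5 ribosome proteins under other names, the 2 genes with the smallest p of each other list, and the 3 neighbours on either side of Mrps23. Members named for groups that do not overlap, Mrpl46, a partner of Mrps11, and Mrpl47 and Mrps28, each lowest in 1 measure, were added after their values were seen.

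The labels number replicates 1 to 3 in each genotype. Over all genes, deviations from group means of same-numbered libraries correlated at 0.453, 0.104 and 0.469 between KO and Het, at -0.0143, 0.0588 and -0.0256 between KO and WT, and at -0.0745, 0.251 and 0.035 between Het and WT. Each same-numbered pair of KO and Het was thus over 0.1, the level set for a block, but KO replicate 1 with Het replicate 2 (0.146) and KO replicate 2 with Het replicate 1 (0.119) exceeded the pair of replicates 2. The labels give no shared litter or day, so a shared origin of same-numbered libraries is not established. KO replicate 1 and Het replicate 1 were both female and both taken to hold bulb RNA.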

Additional observations from a re-analysis of the deposited data

How the results depend on the processing

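Alternatives were a pseudocount of 0.5 or 5, no minimum or a mean of at least 50, quantile or upper-quartile scaling, a fit to the compared groups alone, a replicate block, sex as a covariate, leaving out the 4 libraries with bulb RNA, and leaving out each library in turn. No member was called under any of them. Mrps23 stayed below 0 against WT throughout. Leaving out single libraries gave -0.38 to -0.56 for KO over WT and -0.38 to -0.44 for Het over WT, with adjusted p from 0.804 to 1.00 for KO over WT over all alternatives. With the replicate block, the limma p of Mrps23 was 0.000956 for KO over WT, 0.00151 for Het over WT and 0.690 for KO over Het, its fold changes were as before, and the block changed no call.

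The count of genes called, 0 in each comparison, was 1 in a fit to the compared groups alone for Het against WT and for KO against Het, and 0 to 1 in all comparisons on leaving out single libraries. For KO over Het, Mrps23 was between -0.15 and 0.030 on leaving out single libraries, at 0.014 without KO replicate 2 and 0.030 without KO replicate 3. The median of the members was 0.055 in that comparison without the bulb libraries, with 61 of 78 below 0 under quantile normalization and 39 under upper-quartile scaling. For Het over WT, 52 and 62 were below 0 under these scalings. Besides Mrps23 in KO over Het, signs turned for 8 named genes. Without the bulb libraries, where KO is replicate 3 alone, Dap3 was at 0.075, Mrps14 at -0.011 and Mrpl23 at -0.054 in KO over WT. In that setting Aurkaip1 was at -0.078 in Het over WT, and Mrpl37 at 0.0065 and Ptcd3 at 0.016 in KO over Het. With sex as a covariate Dap3 was at 0.014 in KO over WT. On leaving out single libraries in KO over WT, Dap3 ran from -0.11 to 0.014, Mrps14 from -0.00984 to 0.21 and Mrpl38 from -0.013 to 0.18. In Het over WT, Aurkaip1 ran from -0.049 to 0.075, at -0.0072 without WT replicate 3, and Chchd1 from -0.17 to 0.096, at 0.00489 without WT replicate 1. The causes were not tested. Standard errors of the members named were 0.06 to 0.17 on the log2 scale, so a shift of the size of the members' median was not detectable gene by gene.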
